A study of Homo sapiens with 8 samples.

Results

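The genes described here make serine, carry its carbon on folate and build nucleotides. They are 35 genes taken from a list of symbols for these pathways, out of 63677 gene identifiers in the count tables. All 35 symbols matched an identifier. GART had more than 1 and the identifier with most reads was used. The libraries are from DND-41 and MOLT-4, established human lines of T-ALL, a leukaemia of T-cell precursors. Cells grew in serum-supplemented RPMI-1640 medium and received 100 nM ACBI-1, or the solvent DMSO, for 8 h. ACBI-1 is a small molecule that directs the chromatin-remodelling ATPases SMARCA2 and SMARCA4, and the related subunit PBRM1, to the VHL ubiquitin ligase for destruction. Each of the 4 groups held 2 libraries, and every group is a single established line without any engineered allele in the labels. Each line stands for itself. Whether the 2 libraries of a group are separate cultures is not in the labels, so p-values reflect how much these libraries vary, a spread that may be technical. In bulk RNA, fewer cells of a type and less RNA per cell cannot be told apart.

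Cells make serine from a glycolytic intermediate through PHGDH, PSAT1 and PSPH. Serine hydroxymethyltransferases then move a carbon from serine onto tetrahydrofolate, and the folate enzymes pass it on for purine rings and for thymidylate. Purines are assembled on activated ribose, PRPP, up to IMP, from which AMP and GMP branch off, while pyrimidines are built as a ring first and joined to PRPP later. Lymphoblasts divide fast and lean on these routes, and methotrexate, mercaptopurine, cytarabine and nelarabine, all drugs of T-ALL therapy, act on enzymes of these routes or are activated by them.

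The 8 libraries held between 19860759 and 20239888 counts, so 3 counts were worth 0.137 to 0.165 CPM (counts per 1000000 counts of the TMM-scaled library, the scale of all levels below unless stated per kilobase). T-lineage markers summed to between 4470 and 5149 CPM in DND-41 and between 2495 and 2727 CPM in MOLT-4 (each of 8 markers was above 3 counts in 1 library or more). Myeloid markers summed to at most 0.447 CPM (4 of 5 at 3 counts or fewer throughout) and erythroid markers to at most 0.0551 CPM (5 of 5). B-lineage markers, almost all of it CD79A, summed to 1570.0 and 1588 CPM with DMSO and to 936 and 979.7 CPM with ACBI-1 in DND-41, against at most 8.24 CPM in MOLT-4. Both second replicates of MOLT-4 stood apart from their partners in COL1A1, a fibroblast collagen gene, with 55.4 against 2.20 CPM with DMSO and 11.4 against 0 CPM with ACBI-1. The 6 stromal or epithelial markers together were at 4.51 and 71.7 CPM with DMSO and 0.741 and 15.4 CPM with ACBI-1 in MOLT-4, and at 50.2 and 52.6 CPM with DMSO and 8.09 and 11.1 CPM with ACBI-1 in DND-41. The part of these transcripts in the results was not tested, and values without both second replicates of MOLT-4 are given beside each of the 35 genes whose call there changes.

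In DND-41, 33 of the 35 genes passed the filter on low counts, of which 6 rose and 13 fell with ACBI-1 (edgeR quasi-likelihood test, Benjamini-Hochberg adjustment over all genes, threshold 0.05). That is 57.6% of the tested genes, against 43.2% of all 14008 genes tested in DND-41 (20.0% higher, 23.2% lower). In MOLT-4, 33 passed, 17 rose and 9 fell (10 and 9 when scaled by library size alone), 78.8% against 45.1% of all 14239 genes (20.7% higher, 24.4% lower). The rises lost with library size alone were those of SHMT2, MTHFD1, PRPS1, PFAS, ATIC, UMPS and DTYMK. Their log2 fold changes were then 0.08 to 0.18 (adjusted p from 0.0553 to 0.461). The median log2 fold change over the tested genes was −0.06 in DND-41 and 0.16 in MOLT-4, beside medians of 0.01 and 0.00 over all genes. With ACBI-1, both libraries lay outside the DMSO range in 27 of 33 genes in DND-41 (69.6% of all genes) and in 30 of 33 in MOLT-4 (71.8% of all genes). Changes were small: IMPDH1 aside, every tested gene lay between −0.80 and 0.54 on the log2 scale in either line.

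Across the 2 lines, 8 genes fell in both (PHGDH, PSPH, MTHFD1L, IMPDH1, GMPS, TYMS, TK1 and DCK), where 15.6% of the 12859 genes tested in both lines did so. Another 6 rose in both (MTHFD2, GART, ADSS, DHODH, RRM2 and APRT), against 12% of all genes, or 1546 of them. SHMT2 alone was called in opposite directions, as were 1.68% of all genes. Another 9 rose in MOLT-4 without passing in DND-41, and 3 fell in DND-41 without passing in MOLT-4 (SHMT1, PRPS2 and HPRT1). SAMHD1 was tested in neither line, CTPS2 only in DND-41 and PSAT1 only in MOLT-4, since each was close to 0 elsewhere.

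**Figure D1:**
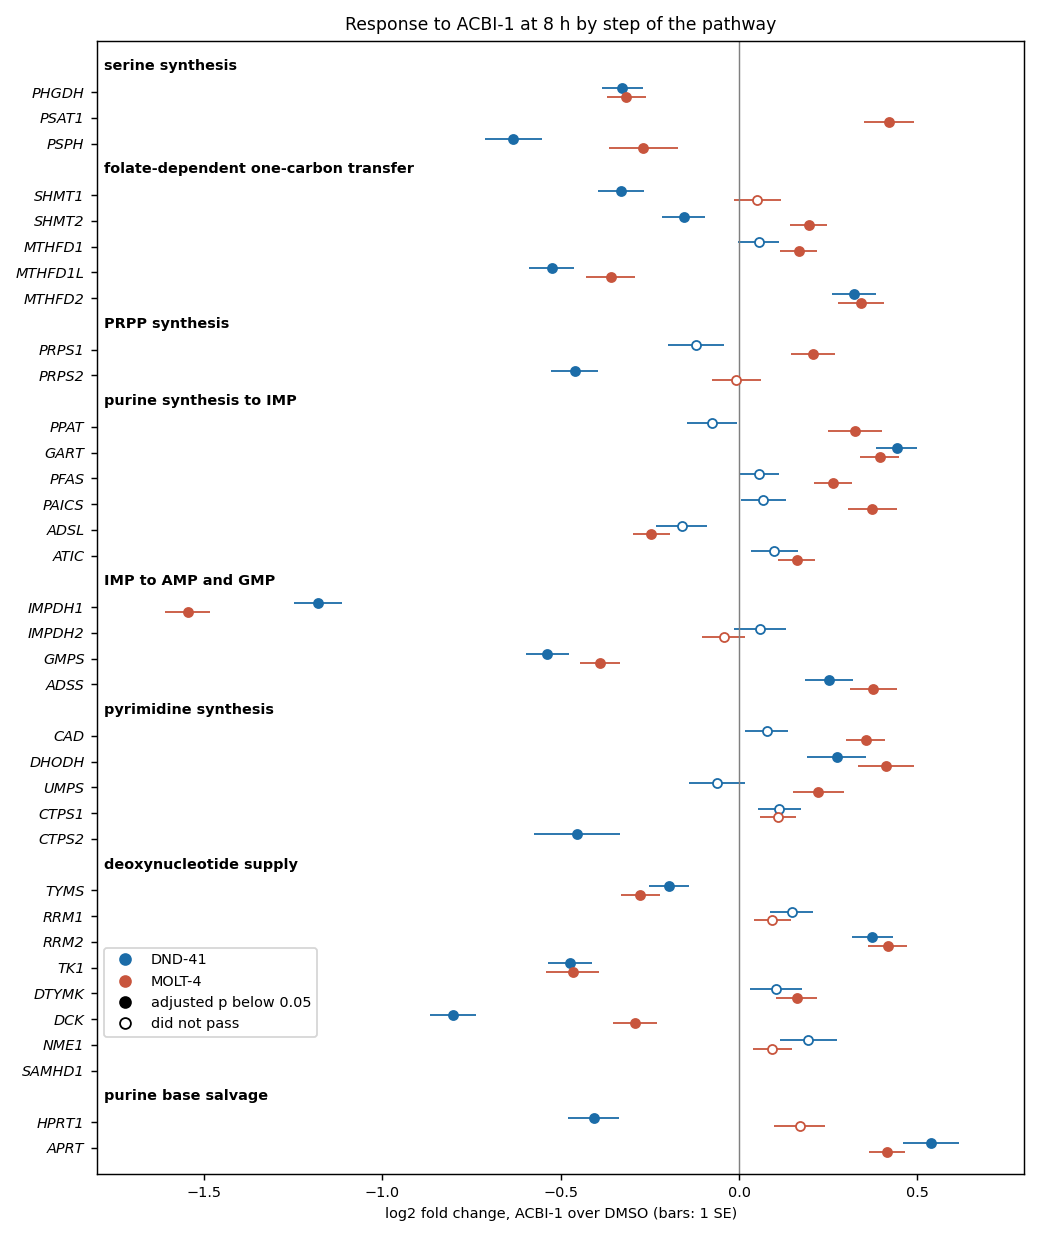
Log2 fold change of each gene with ACBI-1 over DMSO (x axis, bars 1 SE) in DND-41 and MOLT-4, ordered by step of the pathway. Filled points passed an adjusted p of 0.05 and open points did not. IMPDH1 lies farthest left, at −1.18 in DND-41 and −1.55 in MOLT-4, and SAMHD1 has no point because it was tested in neither line.

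Several calls were lost when 1 library was left out. Such a fit has 1 library in a group, so a lost call need not mean that the effect rested on the library left out. In DND-41, TYMS (−0.20 with all libraries) then stood at −0.22 and −0.19, and DHODH (0.27) at 0.23 and 0.30. ADSS (0.25) stood at 0.22. SHMT2 (−0.16) stood at −0.15 and −0.17 without a DMSO library and at −0.11 without ACBI-1 replicate 2. In DND-41, 13 genes rather than 6 were called higher without ACBI-1 replicate 2, and 4 calls ended without 1 library: ADSS (without DMSO replicate 1, adjusted p = 0.136), DHODH and TYMS (without either DMSO replicate, adjusted p from 0.0577 to 0.169) and SHMT2 (without either DMSO replicate or ACBI-1 replicate 2, adjusted p from 0.122 to 0.297). In MOLT-4, the fit without both second replicates, in which the spread comes from DND-41, kept 9 of the 17 rises and 6 of the 9 falls. The calls lost in that fit were PSPH, SHMT2, MTHFD1, PRPS1, PPAT, PFAS, ADSL, ATIC, UMPS, TYMS and DTYMK, at log2 fold changes between −0.24 and 0.19 with adjusted p between 0.106 and 0.417. Of these, ATIC and DTYMK also lost the call without DMSO replicate 1 or ACBI-1 replicate 2, PRPS1 and UMPS without ACBI-1 replicate 2, MTHFD1 without ACBI-1 replicate 1, and PSPH without either ACBI-1 replicate or DMSO replicate 2, with adjusted p between 0.0508 and 0.317.

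**Figure D2:**
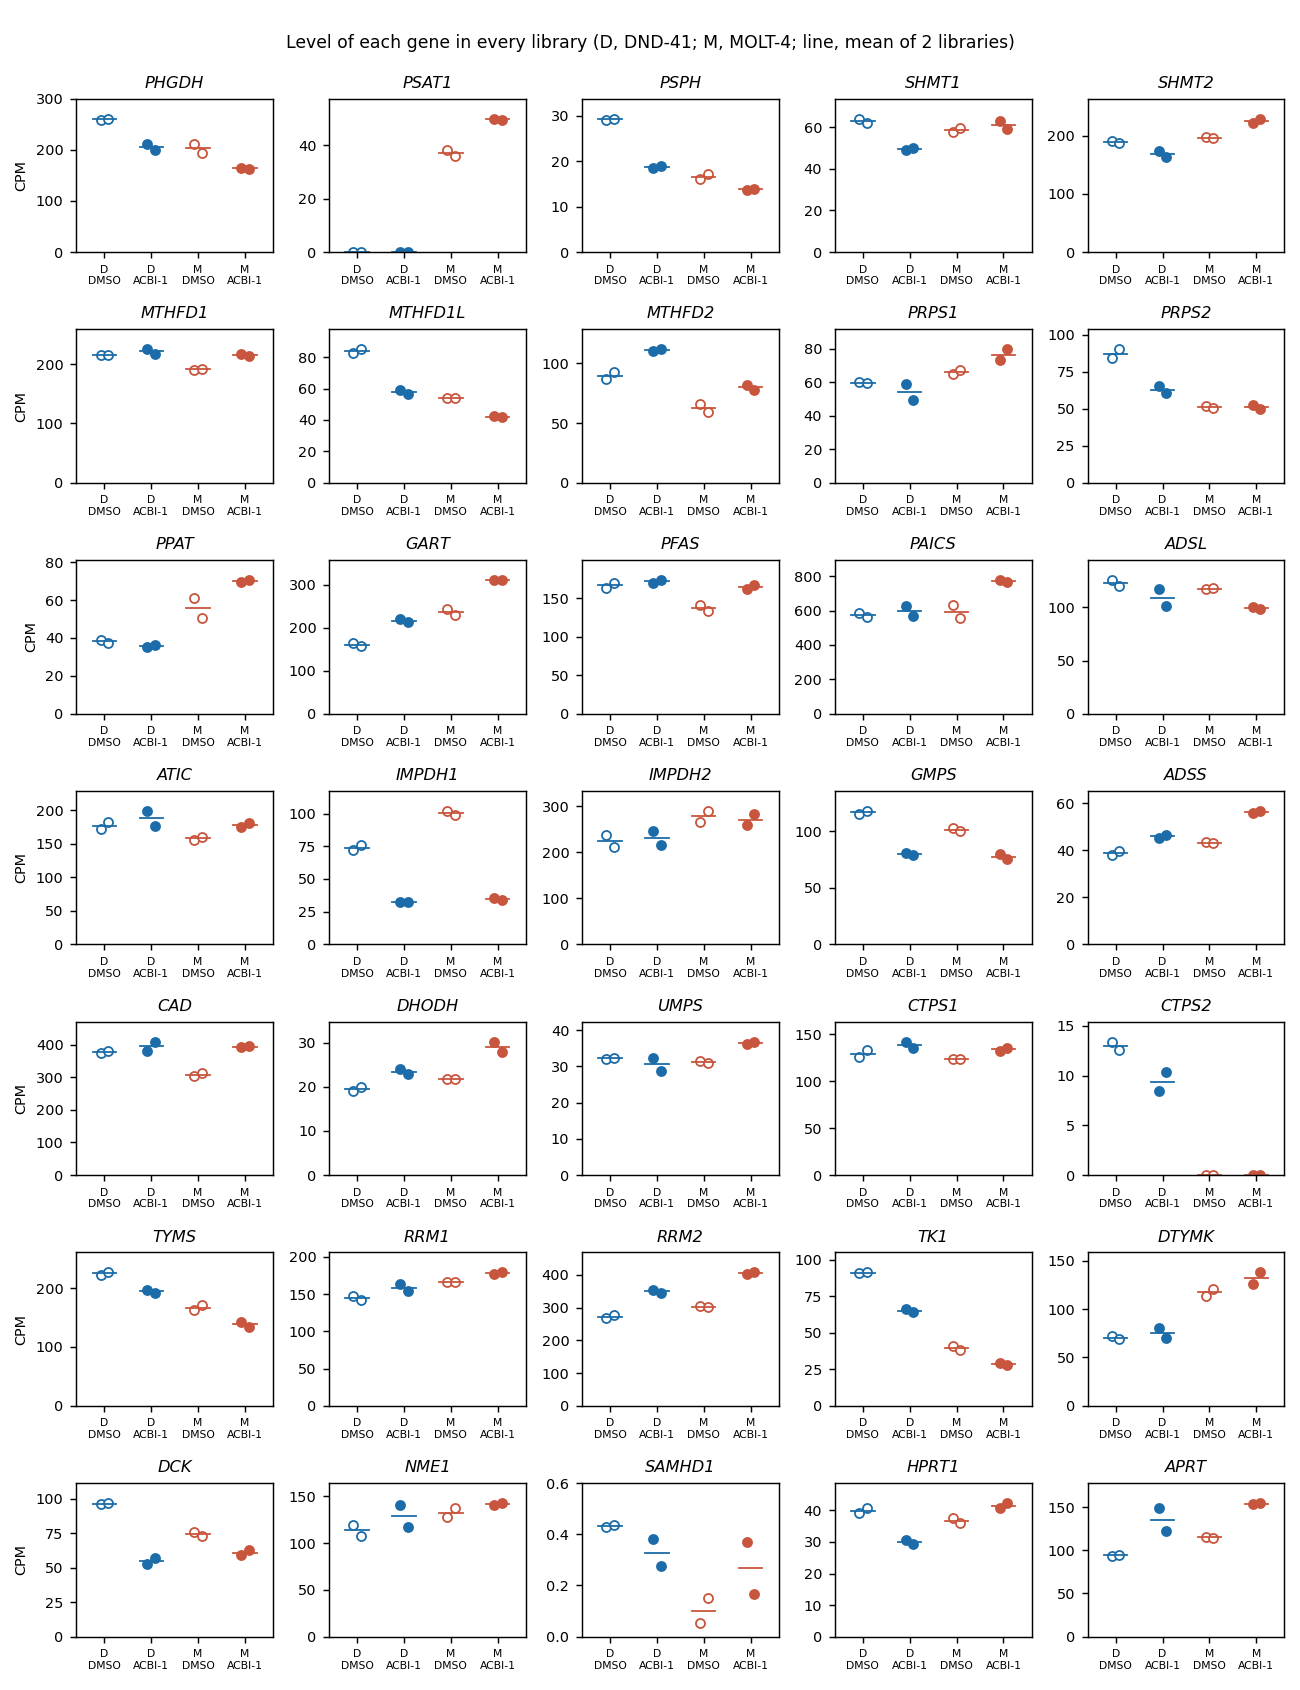
CPM of each of the 35 genes in all 8 libraries (y axis from 0, 1 point a library, short lines the mean of 2 libraries; open points DMSO, filled points ACBI-1). PSAT1 is near 0 in DND-41 and at 36.0 to 50.02 CPM in MOLT-4, while CTPS2 is at 8.47 to 13.4 CPM in DND-41 and near 0 in MOLT-4.

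Serine synthesis was measured through all 3 of its enzymes. PHGDH, which commits glycolytic carbon to serine, was at 259 and 261 CPM with DMSO and 211 and 200.1 CPM with ACBI-1 in DND-41. In MOLT-4 it was at 212 and 195 CPM with DMSO and 165 and 162 CPM with ACBI-1. Both treated libraries lay below both controls in each line, and PHGDH fell in DND-41 (log2 fold change −0.33 ± 0.06, adjusted p = 0.000344) and MOLT-4 (−0.32 ± 0.06, adjusted p = 0.000103). PSPH, the phosphatase that ends the route, was at 29.04 and 29.4 CPM with DMSO and 18.4 and 18.9 CPM with ACBI-1 in DND-41, and at 16.1 and 17.2 CPM with DMSO and 13.8 and 13.98 CPM with ACBI-1 in MOLT-4. Its treated libraries were also the lower pair in each line, and it fell in DND-41 (−0.63 ± 0.08, adjusted p = 1.66e-05) and in MOLT-4 (−0.27 ± 0.10, adjusted p = 0.0308, and −0.24, adjusted p = 0.239, without the second replicates).

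PSAT1, the aminotransferase between these enzymes, separated the lines. In DND-41 it had 3 counts in each DMSO library and 0 and 3 counts with ACBI-1, at or below 0.145 CPM, which is at the limit of this depth. MOLT-4 had 38.1 and 36.0 CPM with DMSO and 50.02 and 49.4 CPM with ACBI-1. The treated MOLT-4 libraries were both higher, and PSAT1 rose there (log2 fold change 0.42 ± 0.07, adjusted p = 6.79e-05). With DMSO, the summed counts were 1451 in MOLT-4 and 6 in DND-41, a ratio of 258 after scaling with a 95% exact interval of 118 to 704. Such intervals cover counting error only, since reads without molecular identifiers are not independent molecules. Thus DND-41 held transcripts of PHGDH and PSPH and almost none of the step between them, with either treatment.

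Of the 5 folate enzymes that take carbon from serine, 1 rose and 3 fell in DND-41, and 3 rose and 1 fell in MOLT-4. This makes 80% called in each line, against 43.2% and 45.1% of all genes tested. The mitochondrial enzymes did not move as a block. MTHFD1L, which releases formate from mitochondrial folate, was at 82.7 and 85.0 CPM with DMSO and 59.1 and 56.4 CPM with ACBI-1 in DND-41, and at 53.8 and 54.3 CPM with DMSO and 42.6 and 41.8 CPM with ACBI-1 in MOLT-4. All treated libraries lay below their controls, and MTHFD1L fell in DND-41 (−0.52 ± 0.06, adjusted p = 1.01e-05) and MOLT-4 (−0.36 ± 0.07, adjusted p = 0.000207). MTHFD2, the dehydrogenase that acts just before it, went the other way, from 86.8 and 92.7 CPM to 110.5 and 112 CPM in DND-41 and from 66.0 and 59.7 CPM to 82.2 and 77.4 CPM in MOLT-4. Treated libraries were the higher ones in each line, and MTHFD2 rose by 0.32 ± 0.06 and 0.34 ± 0.06 (adjusted p = 0.000672 and 0.000232).

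SHMT2 and SHMT1 are the mitochondrial and cytosolic hydroxymethyltransferases. SHMT2 was at 191 and 188 CPM with DMSO and 175 and 163 CPM with ACBI-1 in DND-41, and at 198 and 196 CPM with DMSO and 222 and 229.5 CPM with ACBI-1 in MOLT-4. The groups did not overlap in either line but lay in opposite order, lower with ACBI-1 in DND-41 (−0.16 ± 0.06, adjusted p = 0.0469) and higher in MOLT-4 (0.19 ± 0.05, adjusted p = 0.00481). Without the second replicates of MOLT-4, SHMT2 stood there at 0.16 (adjusted p = 0.234). SHMT1 was at 64.1 and 61.9 CPM with DMSO and 49.1 and 50.1 CPM with ACBI-1 in DND-41 and fell there (−0.33 ± 0.06, adjusted p = 0.00076). Its MOLT-4 groups overlapped, at 57.6 and 59.7 CPM with DMSO and 62.8 and 59.1 CPM with ACBI-1 (0.05 ± 0.07, adjusted p = 0.559). MTHFD1, the cytosolic enzyme with 3 folate activities, did not pass in DND-41 (0.05 ± 0.06, adjusted p = 0.472) and rose in MOLT-4 (0.17 ± 0.05, adjusted p = 0.0132), from 189.7 and 192 CPM to 217 and 213 CPM. MTHFD1 stood at 0.18 there without the second replicates (adjusted p = 0.147).

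A stretch of the MTHFD1L promoter and the bases before the MTHFD1 start are printed. These paralogs take up formate in the cytosol (MTHFD1) or release it in mitochondria (MTHFD1L). They were chosen because they went in opposite directions in MOLT-4 and each carries motifs that were searched. The windows are RefSeq promoters on GRCh38.p14, 250 bases before to 50 after each start, and 31 of the 35 genes had one (PSPH, SHMT2, IMPDH2 and ADSL did not). Capitals mark motif letters: TGATGCAA, bound by ATF4 with C/EBP proteins, in MTHFD1L (chr6:150866346-150866375, plus strand), and CCAAT, the palindromic NRF1 site and the E-box CACGTG, bound by MYC and MAX, in MTHFD1 (chr14:64388103-64388352, plus strand, ending at the base before the start).
MTHFD1L: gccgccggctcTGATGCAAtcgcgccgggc
MTHFD1: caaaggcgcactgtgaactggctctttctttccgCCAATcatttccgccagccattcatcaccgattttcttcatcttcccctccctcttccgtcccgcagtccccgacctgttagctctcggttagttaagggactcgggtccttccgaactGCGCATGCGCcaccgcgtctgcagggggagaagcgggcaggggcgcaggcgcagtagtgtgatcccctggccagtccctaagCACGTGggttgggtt
MTHFD1L was the only one of the 31 genes with TGATGCAA, found in 1.08% of all 27305 genes in the table. It lay 24 bases after 1 MTHFD1L start and 90 or 129 bases before others. The MTHFD1L windows also held an E-box and CCAAT, outside the stretch printed, so both paralogs carry these motifs. No window of these genes held TGATGAAA, its other form (1.37% of all genes). Each motif was searched on both strands, and a match describes the letters in the window and does not show that a factor binds there.

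PRPP is made by PRPS1 and PRPS2, isoforms on different genes. PRPS2 was at 84.3 and 90.2 CPM with DMSO and 65.1 and 60.5 CPM with ACBI-1 in DND-41, without overlap, and fell there (log2 fold change −0.46 ± 0.07, adjusted p = 5.81e-05). The PRPS2 groups overlapped in MOLT-4, at 51.9 and 50.8 CPM with DMSO and 52.8 and 49.7 CPM with ACBI-1 (−0.01 ± 0.07, adjusted p = 0.942). PRPS1 was at 59.9 and 59.5 CPM with DMSO and 59.1 and 49.7 CPM with ACBI-1 in DND-41 (−0.12 ± 0.08, adjusted p = 0.235), where ACBI-1 replicate 1 sat next to the controls and replicate 2 below them. Without that replicate 1, PRPS1 was called lower in DND-41 (−0.25, adjusted p = 0.00155). It rose in MOLT-4, from 65.0 and 67.1 CPM to 73.4 and 79.7 CPM (0.21 ± 0.06, adjusted p = 0.00988). PRPS1 stood at 0.16 there without the second replicates (adjusted p = 0.352).

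Of the 6 enzymes that carry PRPP to IMP, 5 rose and 1 fell in MOLT-4, while in DND-41 1 rose and the other 5 did not pass. The share called was 100% in MOLT-4 (45.1% of all genes) and 16.7% in DND-41 (43.2% of all genes). These shares do not test a difference between lines. Tested directly, the response differed between lines for 2 of the 6, PPAT and PAICS, and both calls were lost in some settings. GART, which performs 3 of the steps, rose in both lines. It was at 164 and 157 CPM with DMSO and 219 and 213 CPM with ACBI-1 in DND-41, and at 243 and 229 CPM with DMSO and 311 and 311 CPM with ACBI-1 in MOLT-4. Every treated library lay above its controls (log2 fold change 0.44 ± 0.06, adjusted p = 2.25e-05 in DND-41, 0.39 ± 0.05, adjusted p = 6.98e-06 in MOLT-4). PAICS, a bifunctional enzyme of later steps, had overlapping groups in DND-41, at 586 and 564 CPM with DMSO and 624 and 571 CPM with ACBI-1 (0.07 ± 0.06, adjusted p = 0.421). With 1 library left out, PAICS there lay between 0.00 and 0.13, highest without ACBI-1 replicate 2. In MOLT-4 it rose from 634 and 553 CPM to 777 and 765 CPM (0.37 ± 0.07, adjusted p = 0.000173). PPAT, which commits PRPP to purines, was at 38.8 and 37.5 CPM with DMSO and 35.4 and 36.3 CPM with ACBI-1 in DND-41 (−0.08 ± 0.07, adjusted p = 0.406) and rose from 61.0 and 50.4 CPM to 69.3 and 70.5 CPM in MOLT-4 (0.33 ± 0.08, adjusted p = 0.0016). The lower MOLT-4 control of both PAICS and PPAT was DMSO replicate 2, and without the second replicates PPAT stood at 0.17 (adjusted p = 0.204) and PAICS at 0.28 (adjusted p = 0.0411).

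PFAS and ATIC, which act between GART and IMP, rose in MOLT-4 by 0.26 ± 0.05 (adjusted p = 0.000462) and 0.16 ± 0.05 (adjusted p = 0.0165). Without the second replicates they stood at 0.19 (adjusted p = 0.134) and 0.15 (adjusted p = 0.330). In DND-41 they were at 0.06 ± 0.06 and 0.10 ± 0.07 and did not pass. With 1 library left out, ATIC there lay between 0.01 and 0.18, highest without ACBI-1 replicate 2. ADSL, which cleaves adenylosuccinate and serves both this route and the branch to AMP, fell in MOLT-4, from 117 and 118 CPM to 100.3 and 98.8 CPM (−0.25 ± 0.05, adjusted p = 0.000667). Its value there was −0.24 without the second replicates (adjusted p = 0.129). It was at 126 and 120.4 CPM with DMSO and 117 and 101 CPM with ACBI-1 in DND-41 (−0.16 ± 0.07, adjusted p = 0.0857), where without ACBI-1 replicate 1 it was called lower (−0.28, adjusted p = 7.43e-05).

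PPAT and PAICS lie head to head, with starts 137 bases apart. The bases between them are printed because both genes rose in MOLT-4 and share this stretch, in the direction of PAICS (chr4:56435616-56435751, GRCh38.p14, plus strand), with a stretch just inside PAICS that holds the E-box in capitals (chr4:56435780-56435809).
PPAT-PAICS: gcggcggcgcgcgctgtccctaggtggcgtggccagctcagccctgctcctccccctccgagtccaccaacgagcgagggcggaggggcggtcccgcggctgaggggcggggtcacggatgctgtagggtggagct
PAICS: ctgtatttgctgCACGTGgaaatctccgtt
The stretch between the starts held none of the motifs searched, and the E-box lay 40 bases after the start of PAICS and 182 before that of PPAT. An E-box was present in the windows of 8 of the 31 genes (25.8%): ATIC, DCK, DHODH, MTHFD1, MTHFD1L, NME1, PAICS and PPAT. Among all genes in the table the share was 8.77%. The shares of all genes given for motifs include genes not expressed in these lines, so they are not a matched background. Some genes, such as MTHFD1L, also had more than 1 window and so more room for a match. Of the 8 genes with an E-box, 1 rose and 2 fell in DND-41, and 5 rose and 2 fell in MOLT-4, where PAICS and PPAT count with the same E-box. Beside them, of 33 tested genes described here, 6 rose and 13 fell in DND-41, and 17 rose and 9 fell in MOLT-4. Of all genes tested, 20.0% rose and 23.2% fell in DND-41, and 20.7% rose and 24.4% fell in MOLT-4.

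IMPDH1 showed the largest response of the 35 genes in each line. IMPDH1 and IMPDH2 make the committed step from IMP to guanine nucleotides. IMPDH1 was at 72.1 and 75.7 CPM with DMSO and 32.2 and 32.4 CPM with ACBI-1 in DND-41, and at 102 and 98.8 CPM with DMSO and 35.1 and 33.9 CPM with ACBI-1 in MOLT-4. All treated libraries lay between 32.2 and 35.1 CPM, below every control. IMPDH1 fell 2.27-fold in DND-41 (log2 fold change −1.18 ± 0.07, adjusted p = 4.32e-09) and 2.92-fold in MOLT-4 (−1.55 ± 0.06, adjusted p = 2.42e-13), and without the second replicates of MOLT-4 the value there was −1.55 (adjusted p = 6.26e-08). IMPDH2, the more abundant isoform per length, had overlapping groups in both lines, at 237 and 213 CPM with DMSO and 248 and 217 CPM with ACBI-1 in DND-41 (0.06 ± 0.07, adjusted p = 0.554). In MOLT-4 it was at 267 and 290.4 CPM with DMSO and 260.1 and 283 CPM with ACBI-1 (−0.04 ± 0.06, adjusted p = 0.59). Per kilobase of exon, IMPDH1 with DMSO was at 20.2 ± 0.703 CPM and IMPDH2 at 81.1 ± 6.29 CPM in DND-41, and at 27.4 ± 0.633 and 100.5 ± 5.92 CPM in MOLT-4 (SD, n = 2).

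GMPS, which turns the product of IMPDH into GMP, also fell in both lines. It was at 115 and 118 CPM with DMSO and 80.5 and 79.0 CPM with ACBI-1 in DND-41, and at 103 and 100.2 CPM with DMSO and 80.1 and 75.2 CPM with ACBI-1 in MOLT-4. The treated libraries were below the controls throughout (−0.54 ± 0.06, adjusted p = 4.49e-06 in DND-41, −0.39 ± 0.06, adjusted p = 1.19e-05 in MOLT-4). ADSS, the enzyme that starts the branch to AMP, went the other way, from 38.1 and 39.7 CPM to 45.3 and 46.5 CPM in DND-41 and from 43.4 and 43.1 CPM to 55.8 and 56.8 CPM in MOLT-4. Its treated libraries were the higher ones in each line (0.25 ± 0.07, adjusted p = 0.00735 and 0.38 ± 0.07, adjusted p = 0.000117).

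In pyrimidine synthesis, no gene fell in MOLT-4, where 3 of 4 tested genes rose, and 1 of 5 rose and 1 fell in DND-41. The share called was 75% in MOLT-4 (45.1% of all genes) and 40% in DND-41 (43.2% of all genes). Tested directly, the response differed between lines for CAD alone of these 5 genes, and that call was lost in some settings. CAD, the protein that holds the opening enzymes of the route, was at 375 and 379 CPM with DMSO and 379 and 409 CPM with ACBI-1 in DND-41 (0.08 ± 0.06, adjusted p = 0.323). In MOLT-4 it rose from 303 and 312 CPM to 393 and 395 CPM (0.35 ± 0.05, adjusted p = 2.53e-05), with both treated libraries above both controls. DHODH, the mitochondrial oxidase of the route, rose in DND-41, from 19.2 and 20.1 CPM to 24.0 and 22.9 CPM (0.27 ± 0.08, adjusted p = 0.0165), and in MOLT-4, from 21.9 and 21.7 CPM to 30.3 and 27.9 CPM (0.41 ± 0.08, adjusted p = 0.00024). UMPS, which joins the ring to PRPP, was at −0.06 ± 0.08 in DND-41, where it did not pass, and rose by 0.22 ± 0.07 in MOLT-4 (adjusted p = 0.0154), where it was at 0.19 (adjusted p = 0.280) without the second replicates.

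Of the CTP synthases, CTPS1 was present in both lines and CTPS2 only in DND-41 above the limit of this depth. CTPS2 was at 13.4 and 12.6 CPM with DMSO and 8.47 and 10.3 CPM with ACBI-1 in DND-41, and fell there (log2 fold change −0.45 ± 0.12, adjusted p = 0.0068). MOLT-4 had 1 CTPS2 count in its DMSO libraries together and 0 in both treated libraries, which at 3 counts of the total allows up to 0.159 and 0.165 CPM. With DMSO the ratio of DND-41 to MOLT-4 was 510.2, on 544 counts against 1, with a 95% exact interval of 91.2 to 20190 that shows how little 1 count fixes it. CTPS1, the isoform that proliferating lymphocytes depend on, was at 126 and 133 CPM with DMSO in DND-41 and 124 and 124 CPM in MOLT-4, and passed in neither line (0.11 ± 0.06 and 0.11 ± 0.05).

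Deoxynucleotide supply split by enzyme: RRM2 rose, and TYMS, TK1 and DCK fell, in both lines. RRM2, the regulatory subunit of ribonucleotide reductase that limits its activity through the cell cycle, was at 268 and 276 CPM with DMSO and 353 and 345 CPM with ACBI-1 in DND-41, and at 304 and 302 CPM with DMSO and 404 and 407 CPM with ACBI-1 in MOLT-4. No treated library overlapped its controls, and RRM2 rose in DND-41 (0.37 ± 0.06, adjusted p = 9.74e-05) and MOLT-4 (0.42 ± 0.05, adjusted p = 3.42e-06). Its large partner RRM1 passed in neither line, at 0.15 ± 0.06 and 0.09 ± 0.05. With replicate number as a block, RRM1 was called higher in DND-41 (0.15, adjusted p = 0.0212). With 1 library left out there, it stood between 0.10 and 0.19. Thymidine kinase TK1, which salvages thymidine in dividing cells, was at 91.2 and 91.5 CPM with DMSO and 66.1 and 64.2 CPM with ACBI-1 in DND-41, and at 40.7 and 38.6 CPM with DMSO and 29.5 and 28.0 CPM with ACBI-1 in MOLT-4. Treated libraries were the lower ones in each line, and TK1 fell in DND-41 (−0.47 ± 0.06, adjusted p = 2.00e-05) and MOLT-4 (−0.47 ± 0.07, adjusted p = 3.18e-05). TYMS, which makes thymidylate with a folate carbon and is the target of fluoropyrimidines, was at 223 and 227 CPM with DMSO and 198 and 191 CPM with ACBI-1 in DND-41 (−0.20 ± 0.06, adjusted p = 0.0115), and at 162 and 172 CPM with DMSO and 142 and 134 CPM with ACBI-1 in MOLT-4 (−0.28 ± 0.05, adjusted p = 0.000354, and −0.20, adjusted p = 0.106, without the second replicates). TYMS overlaps ENOSF1 on the opposite strand, which had 678 to 1047 counts a library against 2439 to 4696 for TYMS, and the strand setting of the counting is not given in the sources used here.

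DCK phosphorylates deoxycytidine and activates cytarabine and the active form of nelarabine. It was at 95.7 and 96.7 CPM with DMSO and 52.5 and 56.8 CPM with ACBI-1 in DND-41, and at 75.5 and 72.9 CPM with DMSO and 59.1 and 62.4 CPM with ACBI-1 in MOLT-4. Each treated library was below its controls, and DCK fell 1.74-fold in DND-41 (−0.80 ± 0.06, adjusted p = 1.65e-07) and 1.23-fold in MOLT-4 (−0.29 ± 0.06, adjusted p = 0.000628). Its promoter is shown because DCK had the strongest fall after IMPDH1 in DND-41 and holds an E-box, in capitals, 116 bases before the start (chr4:70993399-70993648, GRCh38.p14, plus strand, ending at the base before the start).
DCK: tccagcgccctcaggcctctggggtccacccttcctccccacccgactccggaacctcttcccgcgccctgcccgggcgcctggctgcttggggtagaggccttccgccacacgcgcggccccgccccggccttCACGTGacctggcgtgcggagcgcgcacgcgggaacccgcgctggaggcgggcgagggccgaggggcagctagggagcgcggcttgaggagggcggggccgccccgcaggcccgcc
DCK and GART were the genes whose windows held the E2F motif TTTGGCGC (0.795% of all genes), and none held TTTCGCGC (0.63%). In DCK the motif lay 21 bases after the start, outside the stretch printed. In GART it lay 245 bases before 1 of the starts. The CCAAT box, the most common motif searched, was in the windows of 16 of the 31 genes (51.6%) and of 39.7% of all genes. In DND-41, 4 of these 16 genes rose and 4 fell (2 were not tested), and in MOLT-4 9 rose and 3 fell (1 was not tested). Of all genes tested, 20.0% rose and 23.2% fell in DND-41, and 20.7% rose and 24.4% fell in MOLT-4.

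The kinases that follow gave smaller values. DTYMK, which phosphorylates thymidylate, was at 0.10 ± 0.07 in DND-41 without passing and rose by 0.16 ± 0.06 in MOLT-4 (adjusted p = 0.027). Leaving out both second replicates, the DTYMK value there was 0.13 (adjusted p = 0.417), and leaving out ACBI-1 replicate 2 alone it was 0.10 (adjusted p = 0.317). NME1, a nucleoside diphosphate kinase, passed in neither line (0.19 ± 0.08 and 0.09 ± 0.05). Its value is uncertain, since its neighbour and near copy NME2 had 0 counts in all libraries while a transcript that joins both had 296 to 415, so reads of the pair may not have been assigned to one gene. SAMHD1, which breaks down deoxynucleotides and inactivates the active form of cytarabine, was at 0.427 and 0.435 CPM with DMSO and 0.383 and 0.274 CPM with ACBI-1 in DND-41, and at 0.0525 and 0.149 CPM with DMSO and 0.37 and 0.165 CPM with ACBI-1 in MOLT-4. All 8 libraries were too low for the filter, and no change was detectable at this depth.

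Of the 35 genes, HPRT1, of purine base salvage, had the largest called difference between lines in its response to ACBI-1. HPRT1, which recovers hypoxanthine and guanine and activates mercaptopurine, was at 39.1 and 40.9 CPM with DMSO and 30.5 and 29.2 CPM with ACBI-1 in DND-41. In MOLT-4 it was at 37.7 and 35.9 CPM with DMSO and 40.7 and 42.3 CPM with ACBI-1. The groups did not overlap in either line but their order was opposite, lower with ACBI-1 in DND-41 (log2 fold change −0.41 ± 0.07, adjusted p = 0.000319) and higher, without passing, in MOLT-4 (0.17 ± 0.07, adjusted p = 0.0617). APRT, which recovers adenine, rose in both lines, from 93.8 and 95.04 CPM to 149 and 123 CPM in DND-41 and from 116 and 115 CPM to 154 and 155 CPM in MOLT-4. Treated libraries were the higher ones in each line, with a wide spread between the DND-41 treated libraries (0.54 ± 0.08, adjusted p = 6.74e-05 in DND-41, 0.42 ± 0.05, adjusted p = 1.58e-06 in MOLT-4).

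Whether the response differed between lines was tested directly, as the effect in MOLT-4 minus that in DND-41 over all 8 libraries. Of 34 genes tested, 10 had a higher effect in MOLT-4 and 1 a lower one, 32.4% in all, against 13.3% of all 15498 genes tested (7.18% higher, 6.17% lower). The differences were 0.60 ± 0.10, adjusted p = 0.000307 for HPRT1, 0.53 ± 0.09, adjusted p = 0.000312 for DCK and 0.47 ± 0.09, adjusted p = 0.00136 for PRPS2, and these 3 held in every alternative run. For SHMT1 the difference was 0.40 ± 0.09 (adjusted p = 0.00334) and for SHMT2 0.37 ± 0.08 (adjusted p = 0.00315). PPAT, PAICS, PRPS1 and CAD, with differences of 0.42, 0.32, 0.35 and 0.29, are genes that rose in MOLT-4 and did not pass in DND-41, while PSPH, at 0.38, fell in both lines and more so in DND-41. IMPDH1 alone had the lower effect in MOLT-4 (−0.35 ± 0.09, adjusted p = 0.011). For the other genes a difference was not shown, which for GART, PHGDH, TK1 and MTHFD2 left estimates of −0.03 ± 0.08, 0.03 ± 0.08, 0.03 ± 0.09 and 0.04 ± 0.09.

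The other 8 differences lost their call in 1 setting or more. Without both second replicates of MOLT-4, 4 of the 10 higher differences were called (SHMT1 at 0.45, PRPS2 at 0.48, DCK at 0.44 and HPRT1 at 0.51) and IMPDH1 stood at −0.37 (adjusted p = 0.0849). The other 6 higher differences were then between 0.22 and 0.40 (adjusted p from 0.111 to 0.355). PSPH lost its call without any 1 of the 8 libraries (adjusted p from 0.0544 to 0.131). CAD lost it without either DND-41 DMSO library, either MOLT-4 ACBI-1 library or MOLT-4 DMSO replicate 1 (0.0509 to 0.0799), and IMPDH1 without DND-41 DMSO replicate 1 or MOLT-4 ACBI-1 replicate 2 (0.0746 to 0.0779). PPAT lost it without DND-41 DMSO replicate 1 or either second replicate of MOLT-4 (0.0603 to 0.110), with values down to 0.27. PAICS lost it without DND-41 ACBI-1 replicate 2, either DND-41 DMSO library, either MOLT-4 ACBI-1 library or MOLT-4 DMSO replicate 2 (0.0802 to 0.222), with values down to 0.21. PRPS1 lost it without DND-41 ACBI-1 replicate 2, either DMSO library of either line or MOLT-4 ACBI-1 replicate 2 (0.0811 to 0.171), with values down to 0.23. Scaled by library size alone, which moved the median difference of all genes by −0.12, 3 higher differences and IMPDH1 were called.

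**Figure D3:**
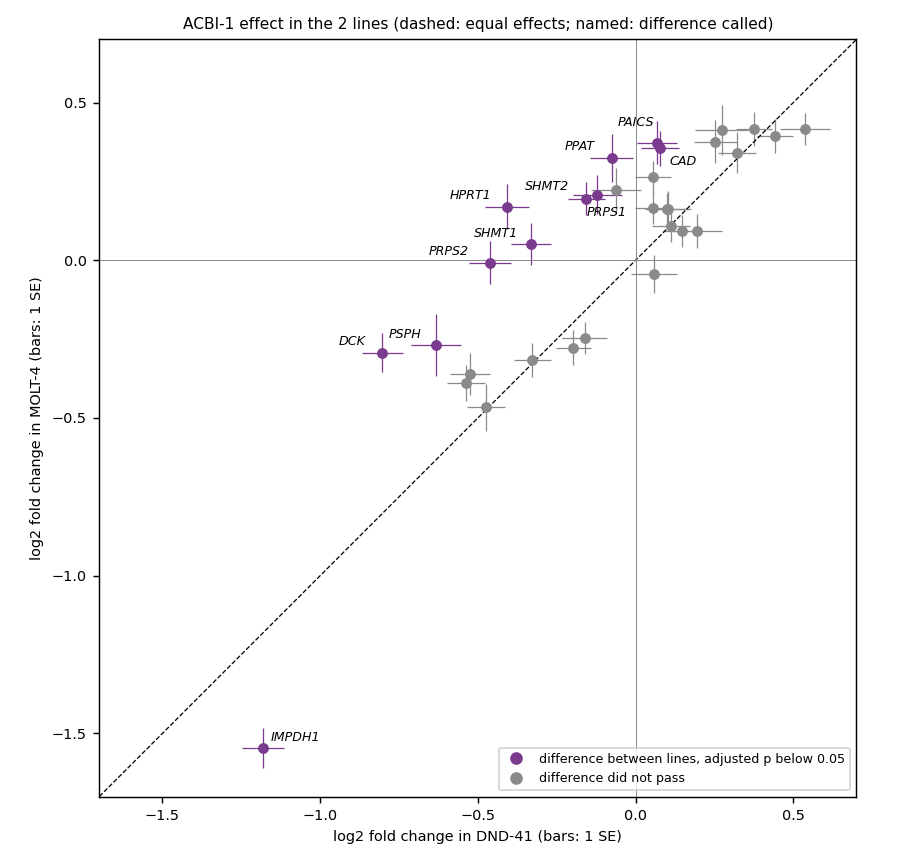
Log2 fold change with ACBI-1 in DND-41 (x axis) and in MOLT-4 (y axis) for the genes tested in both lines, with bars of 1 SE and a dashed line where the effects are equal. Purple points are the 11 genes whose difference between lines passed; 10 lie above the dashed line and IMPDH1 below it.

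With DMSO alone, 25 of 34 tested genes differed between the lines, 11 higher and 14 lower in MOLT-4, which is 73.5%, against 67.4% of all 14868 genes (34.7% higher, 32.7% lower). Scaled by library size alone, 7 were higher and 18 lower. Beside CTPS2, the genes lowest in MOLT-4 relative to DND-41 were TK1 (log2 fold change −1.21 ± 0.06, adjusted p = 1.29e-12), PSPH (−0.81 ± 0.08, adjusted p = 2.54e-08), PRPS2 (−0.77 ± 0.06, adjusted p = 1.12e-09) and MTHFD1L (−0.64 ± 0.06, adjusted p = 9.44e-09). Beside PSAT1, those highest were DTYMK (0.74 ± 0.05, adjusted p = 6.24e-10), GART (0.55 ± 0.05, adjusted p = 1.60e-08), PPAT (0.54 ± 0.08, adjusted p = 7.28e-06) and IMPDH1 (0.44 ± 0.05, adjusted p = 7.28e-07). Each comparison is of 1 line with 1 other, so line and culture cannot be told apart. Without the second replicates of MOLT-4, 5 of these calls were lost (MTHFD1, PRPS1, ATIC, GMPS and NME1, adjusted p from 0.0643 to 0.259). Without 1 library, PRPS1 lost its call unless MOLT-4 DMSO replicate 1 was the one left out (adjusted p from 0.134 to 0.204), ATIC and NME1 lost theirs without DND-41 DMSO replicate 2 (0.150 and 0.100), and RRM2 without DND-41 DMSO replicate 1 (0.135).

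Per kilobase of exon, the highest of the 35 genes with DMSO in DND-41 were TYMS at 91.0 ± 1.10 CPM, IMPDH2 at 81.1 ± 6.29 CPM and PAICS at 76.5 ± 2.04 CPM (SD, n = 2), where the libraries of IMPDH2 and PAICS overlapped. In MOLT-4 they were IMPDH2 at 100.5 ± 5.92 CPM, PAICS at 79.0 ± 7.58 CPM and TYMS at 67.6 ± 2.82 CPM, without overlap. Below them APRT and RRM2 took the next places in both lines. At the low end, UMPS and DHODH were at 4.25 ± 0.0457 and 2.83 ± 0.0903 CPM in DND-41, and at 4.11 ± 0.0504 and 3.15 ± 0.0182 CPM in MOLT-4. Below them lay CTPS2 (2.36 ± 0.105 CPM), PSAT1 and SAMHD1 in DND-41, and SAMHD1 and CTPS2 in MOLT-4, where PSAT1 was at 16.9 ± 0.675 CPM. Neighbours overlapped most in the middle of MOLT-4, where each of DCK, HPRT1, PHGDH, TK1 and PFAS overlapped the next lower gene, from DCK at 23.0 to MTHFD1 at 20.4 CPM.

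**Figure D4:**
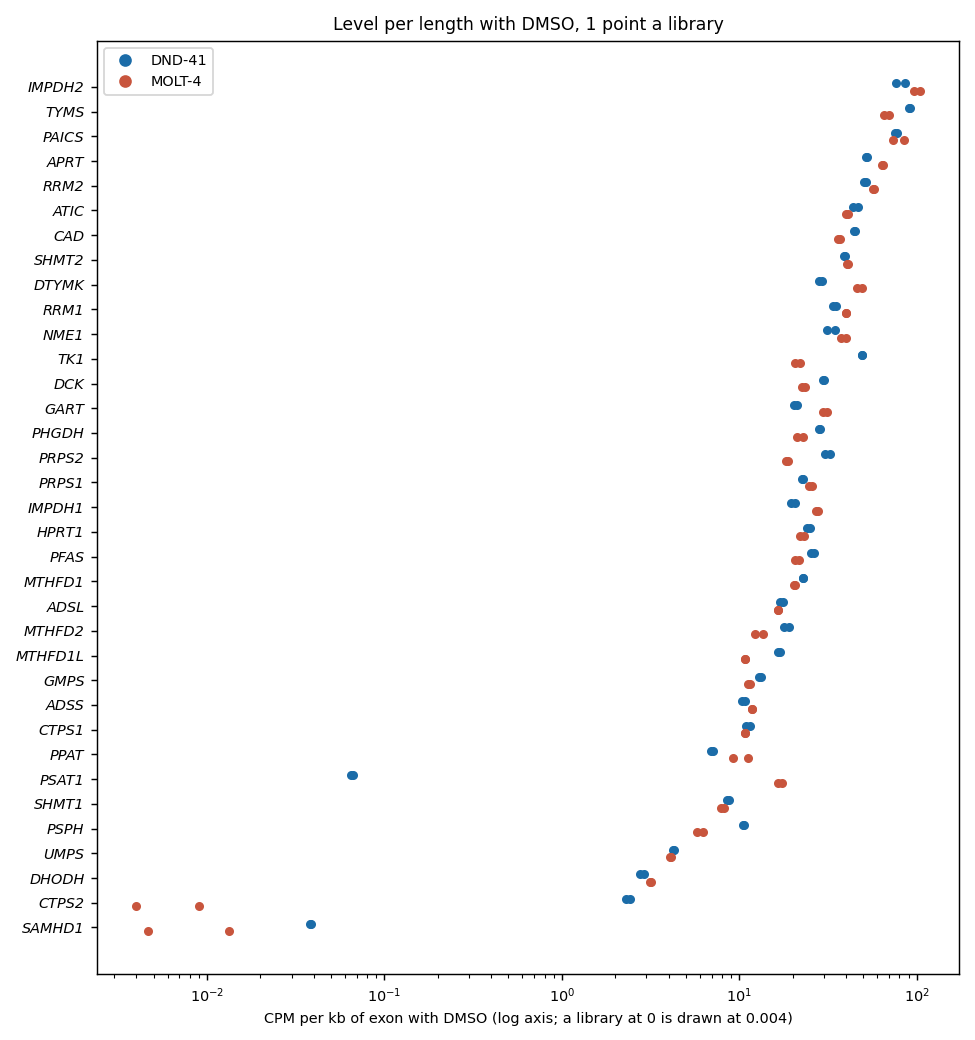
CPM per kilobase of exon with DMSO for each gene (log x axis, 1 point a library, a library at 0 drawn at 0.004), sorted by the sum over both lines. IMPDH2, TYMS and PAICS lead, and PSAT1 and CTPS2 are the genes whose lines lie farthest apart.

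Genes around the pathway were described from lists of 117 other symbols. In all, 19 of 102 tested rose and 29 fell in DND-41, and 39 of 105 rose and 22 fell in MOLT-4 (18 and 24 when scaled by library size alone), or 47.1% and 58.1% called, against 43.2% and 45.1% of all genes tested. Replication and G1/S genes had no fall in DND-41, where 7 of 23 rose, and 15 rises and 1 fall among 23 in MOLT-4 (30.4% and 69.6% called), with medians of 0.13 and 0.17. The rises included the helicase subunits MCM5 (0.41 ± 0.06) and MCM4 (0.27 ± 0.06) in DND-41, and the cyclin gene CCNE2 (0.77 ± 0.07) and the clamp loader RFC4 (0.43 ± 0.07) in MOLT-4. MCM5 (0.17) and MCM4 (0.29) also rose in MOLT-4, and CCNE2 (0.26) and RFC4 (0.26) in DND-41. Each of these added calls was lost in 1 alternative setting or more. The polymerase gene POLE fell in MOLT-4 (−0.31 ± 0.06). Of genes that supply serine, glycine, glutamine and aspartate, 8 of 13 fell and 1 rose in DND-41 and 5 fell and 2 rose in MOLT-4 (69.2% and 53.8% called), with medians of −0.32 and −0.15. SLC1A4, a neutral amino acid transporter that carries serine, was at 419 and 426 CPM with DMSO and 165 and 172 CPM with ACBI-1 in DND-41, and at 84.2 and 86.2 CPM with DMSO and 46.5 and 46.6 CPM with ACBI-1 in MOLT-4. No treated library overlapped its controls, and SLC1A4 fell in DND-41 (−1.31 ± 0.06, adjusted p = 4.51e-10) and MOLT-4 (−0.88 ± 0.06, adjusted p = 6.44e-10), as did the glutamine transporter SLC1A5 (−0.91 ± 0.06 and −0.41 ± 0.05). SLC7A5, a subunit of a large neutral amino acid transporter, rose in DND-41 (0.24 ± 0.07), and asparagine synthetase ASNS (0.55 ± 0.09) and glutamine synthetase GLUL (0.29 ± 0.06) rose in MOLT-4.

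Of the other folate and one-carbon genes, 3 of 18 rose and 5 fell in DND-41, and 5 of 20 rose and 2 fell in MOLT-4. That is 44.4% and 35% called, near and below the 43.2% and 45.1% of all genes. In DND-41 the transsulfuration gene CTH rose (0.87 ± 0.15), and MAT2A, which makes S-adenosylmethionine, and GCSH, of the glycine cleavage system, fell (−0.54 ± 0.06 and −0.47 ± 0.14). Leaving out ACBI-1 replicate 2, GCSH stood at −0.25 (adjusted p = 0.115), and leaving out replicate 1, at −0.74. In MOLT-4 the glycine decarboxylase GLDC fell from 21.9 and 19.9 CPM to 7.62 and 7.60 CPM (−1.46 ± 0.11), the serine carrier SFXN1 fell (−0.20 ± 0.05) and the folate hydrolase GGH rose (0.45 ± 0.09). Leaving out the second replicates, SFXN1 stood at −0.21 (adjusted p = 0.122) and GGH at 0.35 (adjusted p = 0.144). DND-41 had at most 0.274 CPM of GLDC in any library, so its response could not be compared between lines.

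Other nucleotide synthesis and salvage genes gave 3 rises and 9 falls among 25 in DND-41, and 8 of each among 25 in MOLT-4. The shares called were 48% and 64%, against 43.2% and 45.1% of all genes. The mitochondrial kinase gene NME4 rose in both lines (0.56 ± 0.07 and 1.05 ± 0.06). RPIA, of the pentose phosphate pathway, also rose in both (0.42 ± 0.06 in DND-41 and 0.25 in MOLT-4). In MOLT-4, RPIA stood at 0.24 without the second replicates and did not pass. PGD of the same pathway fell in DND-41 (−0.82 ± 0.06). The nucleoside transporter gene SLC29A2 fell in both lines (−0.83 ± 0.14 and −0.60 ± 0.12), and in MOLT-4 the mitochondrial kinase gene CMPK2 rose (0.89 ± 0.08) and RRM2B, the p53-induced reductase subunit, fell (−0.58 ± 0.14). Breakdown and deamination genes gave 4 rises and 4 falls among 12 in DND-41, and 4 and 2 in MOLT-4 (66.7% and 50% called). Adenosine deaminase ADA rose in both lines (0.61 ± 0.07 and 0.50 ± 0.08), and the AMP deaminase gene AMPD3 fell in both (−1.58 ± 0.14 and −0.52 ± 0.08). Its relative AMPD2 rose in DND-41 (0.87 ± 0.06), and the nucleotidase gene NT5C fell in both lines (−0.41 ± 0.07 and −0.32 ± 0.09). NT5M rose in both lines (0.36 in DND-41 and 0.64 ± 0.10 in MOLT-4). Its DND-41 call was lost without either DMSO library, at 0.37 and 0.33. Without the second replicates of MOLT-4, NT5C stood there at −0.18 (adjusted p = 0.295) and RRM2B at −0.56 (adjusted p = 0.113).

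Among 12 transcription factors known to act on these genes, 1 of 11 tested rose and 3 fell in DND-41, and 5 of 12 rose and 4 fell in MOLT-4. The shares called were 36.4% and 75%, against 43.2% and 45.1% of all genes. MYC, which drives many of the genes above, was called in opposite directions: it was at 722 and 732 CPM with DMSO and 537 and 533 CPM with ACBI-1 in DND-41, and at 789 and 801 CPM with DMSO and 954 and 980.4 CPM with ACBI-1 in MOLT-4. The groups did not overlap in either line (−0.43 ± 0.06 and 0.28 ± 0.06), and the difference between lines was 0.72 ± 0.08, adjusted p = 5.38e-06. Scaled by library size alone, the MYC value in MOLT-4 was 0.20 and did not pass (adjusted p = 0.111). ATF4, the amino acid response factor that acts on PHGDH, PSAT1, PSPH and MTHFD2, passed in neither line (−0.03 ± 0.06 and 0.02 ± 0.06), while with DMSO it was lower in MOLT-4 (−1.38 ± 0.06, adjusted p = 4.65e-14). MYCN fell in MOLT-4 (−2.25 ± 0.17) and had 0 counts in all 4 DND-41 libraries. E2F3 rose in DND-41 (0.27 ± 0.06), E2F2 and CEBPB rose in MOLT-4 (0.43 ± 0.07 and 0.46 ± 0.12), and ATF3 fell there (−0.60 ± 0.14). NFE2L2 fell in both lines (−0.27 ± 0.08 in DND-41 and −0.23 in MOLT-4). Without MOLT-4 ACBI-1 replicate 1, NFE2L2 stood at −0.15 in MOLT-4 and did not pass. Without the second replicates of MOLT-4, CEBPB stood there at 0.27 (adjusted p = 0.236), and without ACBI-1 replicate 2 NFE2L2 stood at −0.17 in DND-41 (adjusted p = 0.0558). The part of any of these factors in the levels of the 35 genes was not tested.

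**Figure D5:**
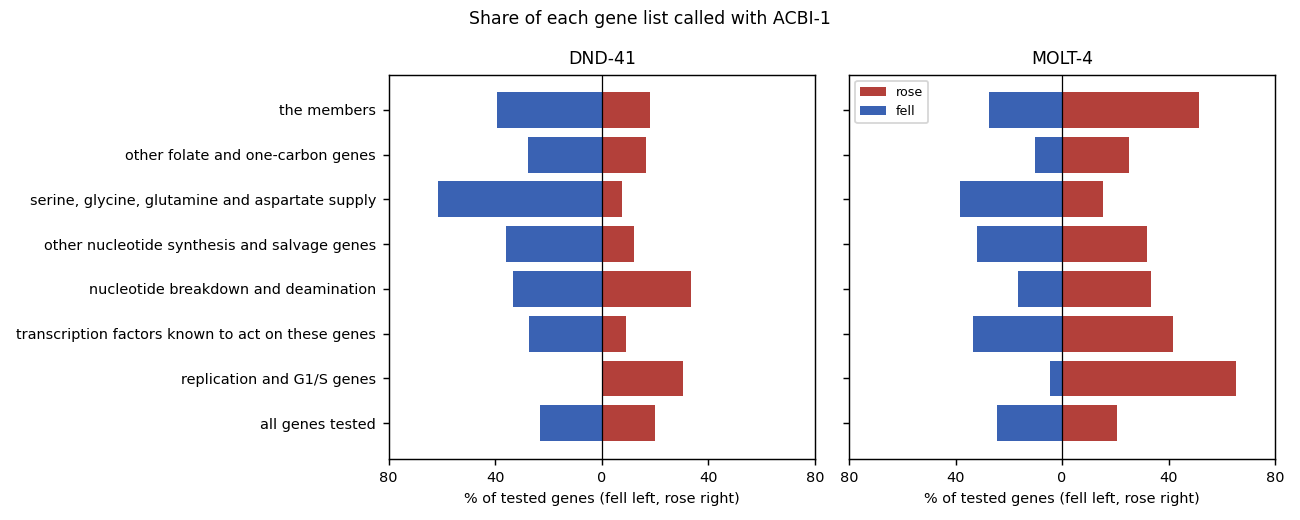
Share of the tested genes of each list that rose (right of 0) or fell (left of 0) with ACBI-1, in % (x axis), in DND-41 and MOLT-4. The top bars are the 35 genes described here and the lowest bars all genes tested, of which 20.0% rose and 23.2% fell in DND-41 and 20.7% rose and 24.4% fell in MOLT-4.

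The authors' deposited tables gave the same sign for 33 of 33 tested genes in each line, once the MOLT-4 table was read as DMSO over ACBI-1. The counts settled this reading: among genes called here with a change over 2-fold, the sign matched for 100.0% of 1176 genes in DND-41 and for 0.0% of 1481 in MOLT-4. At the threshold used here, 15 of the genes were called in the authors' deposited table for DND-41 and 22 in that for MOLT-4, and all of them are among the calls given above. Called here but not in the deposited DESeq2 tables were SHMT2, ADSS, DHODH and CTPS2 in DND-41 (adjusted p from 0.0658 to 0.147). The same held for PSPH, PRPS1, UMPS and DTYMK in MOLT-4 (adjusted p from 0.0682 to 0.310).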

How the data were processed

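Total RNA from the 8 libraries was sequenced strand-specifically as paired reads, per the labels' protocols. Reads were aligned to hg19 with STAR 2.5.2a and counted with featureCounts, per the submitters' processing notes, and the deposited counts are raw counts per gene. The authors deposited tables for each line with log2 fold changes and their standard errors, p-values, and 2 other score columns, a mean of normalised counts and a test statistic, made with DESeq2 1.12.4 per the submitters' processing notes. The direction of these tables was taken from the counts.

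Here, genes were filtered with filterByExpr (minimum count 10), scaled by TMM and tested with edgeR 4.0.16 (R 4.3.3) by the quasi-likelihood F test, separately in each line for ACBI-1 over DMSO, over all 8 libraries for the difference between lines, and over the 4 DMSO libraries for MOLT-4 over DND-41. P-values were adjusted by Benjamini-Hochberg over all genes of a fit. Standard errors (±) are on the log2 scale. Levels per kilobase used exon lengths of GENCODE v29 by gene ID, so they carry the limits of a newer annotation. Each fit was first checked on simulated data. A log2 change of 0.5 was recovered for 68% of changed genes in DND-41, 55% in MOLT-4, 44% in the difference and 65% with DMSO. In the same order, 7.14%, 4.41%, 7.14% and 4.03% of calls were false. The simulation changed a far smaller share of genes than was called in these data. Before a change was added, it gave every library the same underlying level of a gene, without a difference between lines. Its rates therefore need not hold for these data. Alternatives were DESeq2 1.42.0, other scaling, filters and thresholds, a replicate block, each library left out, and, chosen after seeing the data, the fit without both second replicates of MOLT-4. Replicates correlated at r = 0.996 to 0.998 (log2 CPM across genes). The 35 genes and the lists around them were chosen with earlier results of these data known. All 35 are named. Of the other genes, up to 2 rises and 2 falls of largest size per list and line were named where the mean was at least 5 CPM, with MYC and ATF4 named whatever their value. A gene named for 1 line may therefore also have been called in the other. The result of 1 gene is not reported here.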

Additional observations from a re-analysis of the deposited data

Results flagged for a closer look

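For 25 of the genes named here and tested in both lines, the response to ACBI-1 differed between the lines (adjusted p below 0.05). The test was the interaction term of the edgeR fit over 8 libraries. Such a difference was called for 13.3% of all 15498 genes tested, 32.4% of the 34 tested among the 35 genes and 25.5% of 106 other pathway genes. MYC aside, the other genes had been named for large changes in 1 line or both. Each value here is the log2 effect in MOLT-4 minus that in DND-41. Among the 35 genes the values were 0.38 for PSPH, 0.40 for SHMT1, 0.37 for SHMT2, 0.35 for PRPS1, 0.47 for PRPS2, 0.42 for PPAT, 0.32 for PAICS, −0.35 for IMPDH1, 0.29 for CAD, 0.53 for DCK and 0.60 for HPRT1.

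Among the other genes named, those of amino acid and methyl supply that differed were MAT2A (0.45), SLC1A4 (0.45), SLC1A5 (0.52) and GLUL (0.57). Nucleotide genes that differed were CMPK2 (0.88), NME4 (0.51), PGD (0.51), AMPD2 (−0.49) and AMPD3 (1.08). Of the transcription factor and replication genes, MYC (0.72), ATF3 (−0.73), E2F2 (0.44), POLE (−0.31) and CCNE2 (0.53) differed. Without both second replicates of MOLT-4, MAT2A, NME4, ATF3, POLE and CCNE2 did not pass (adjusted p from 0.0511 to 0.152). E2F2 did not pass without MOLT-4 ACBI-1 replicate 1 (0.0511), ATF3 without DND-41 DMSO replicate 2, MOLT-4 DMSO replicate 1 or MOLT-4 ACBI-1 replicate 2 (0.0793 to 0.0982), and POLE without DND-41 DMSO replicate 1 or either MOLT-4 ACBI-1 replicate (0.0635 to 0.118). With 2 libraries a group, no group was large enough to look for single outlying libraries.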

How the results depend on the processing

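In every setting run, 15 of the 19 calls among the 35 genes in DND-41, 15 of 26 in MOLT-4, 18 of 25 between the lines with DMSO and 3 of 11 in the difference between lines were kept. A sign changed in 90 of 3660 values, none of them called before or after. Without both second replicates of MOLT-4, MOLT-4 calls fell from 17 to 9 higher among the 35 genes, from 39 to 21 higher and 22 to 14 lower among the other pathway genes, and from 2948 to 1357 higher and 3477 to 2232 lower among all genes; differences between lines fell from 10 to 4 higher and 1 to 0 lower, from 23 to 14 and 4 to 2, and from 1112 to 440 and 956 to 504. Scaled by library size alone, which moved the median of all genes by −0.08 in MOLT-4, −0.12 in the difference and −0.10 with DMSO, higher calls in MOLT-4 numbered 10, 18 and 1781 for the 35, the other pathway and all genes, higher differences 3, 12 and 499, and higher calls with DMSO 7 of the 35. Lower calls over all genes then numbered 3922 in MOLT-4, 1411 in the difference and 5532 with DMSO (4860 before), where higher ones numbered 4096 (5157 before). DESeq2 called 1856 genes higher in DND-41 (2807 by edgeR) and 1962 in MOLT-4. At an adjusted p below 0.01, 12 other pathway genes (19 before) and 1838 of all genes were called higher in DND-41, and differences numbered 5 higher and 0 lower among the 35 genes, 1 lower among the other pathway genes, and 619 higher and 559 lower among all genes. Leaving out 1 library gave, in DND-41, 5 to 13 higher of the 35 (13 without ACBI-1 replicate 2), 8 to 23 of the other pathway genes and 1745 to 3044 of all genes; for the difference it gave 5 to 10 higher and 0 to 1 lower of the 35, 2 to 5 lower of the other pathway genes, and 699 to 1207 higher and 621 to 989 lower of all genes. Among other named genes, E2F3, MCM4 and SLC7A5 did not pass in DND-41 without DMSO replicate 1, SLC7A5 and NFE2L2 without DMSO replicate 2, and GCSH and NFE2L2 without ACBI-1 replicate 2; SFXN1 and NT5C did not pass in MOLT-4 without ACBI-1 replicate 2. GGH, RRM2B, CEBPB, SFXN1 and NT5C did not pass there without both second replicates, and GLUL did not with library size alone. The cause of these losses was not tested. Same-numbered libraries deviated together at r = 0.113 in DND-41 and 0.205 in MOLT-4, but with 2 pairs the numbers are not shown to pair libraries; with a replicate block, 8 rose and 14 fell of the 35 genes in DND-41, 18 and 9 in MOLT-4, 12 and 1 differed between lines, and 10 and 14 with DMSO, and no count moved by over 1.5 times.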
